A study of Mus musculus with 32 samples.

Results

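The genes described are the DNA methyltransferases Dnmt1, Dnmt3a and Dnmt3b, their catalytically inactive relative Dnmt3l, and Uhrf1, the factor that brings Dnmt1 to newly copied DNA. They were chosen by name, as 5 of the 24940 genes in the expression table, and all 5 were measured in every RNA library and passed the filter on low values. The cells were mouse embryonic stem (ES) cells of strain 129 that express the chromatin protein CTCF fused to green fluorescent protein (GFP). In the control genotype, GFP-CTCF (GC), the fusion is complete; in the other, GFP-CTCF-Del8 (d8 in the RNA-seq names, Del8 in the ChIP-seq names), it lacks zinc finger 8. RNA-seq covered 14 libraries from 5 lines: GC1, GC2, d8-1 and d8-2 with 3 samples each (A to C) and d8-3 with 2 (A and B). Peaks of CTCF came from 1 GC and 1 Del8 ChIP-seq library. Both genotypes carry the GFP tag, so neither is an untagged control. The sources used here do not give the age of the lines, the culture conditions, or whether any CTCF without the tag remained.

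In mammals DNA methylation sits mainly on cytosines of CpG pairs. Uhrf1 recognises CpG pairs that carry a methyl group on one strand after replication and recruits Dnmt1, which copies the mark to the new strand; this is maintenance. Dnmt3a and Dnmt3b place methyl groups where there were none, and Dnmt3l, which has no catalytic activity of its own, binds and stimulates both. ES cells express all of these genes, and in mouse the de novo enzymes are held low in the naive state and raised as cells move towards the epiblast. The series also holds a methylation assay, Med-Seq, which was not analysed here, so the values below are RNA levels of the enzymes and not methylation.

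Promoters of Dnmt3a, Dnmt3b and Dnmt1 are shown because one of the Dnmt3a starts has a CTCF peak beside it that was absent from the Del8 list. Each runs from 250 bases before to 50 bases after the start on the gene's own strand, in RefSeq annotation of GRCm38.p6, with the cytosine and guanine of each CpG in capitals. Dnmt3a has a start of a long transcript (chr12:3806730-3807029, plus strand) and a start inside the gene of a shorter one (chr12:3891494-3891793, plus strand), and the shorter one is the transcript that the deposited RPKM values count. These values do not tell the long and the short transcript apart. Dnmt3b has a single RefSeq start (chr2:153649199-153649498, plus strand). The most downstream of 3 Dnmt1 starts (chr9:20952574-20952873, minus strand) is given for a maintenance gene.
Dnmt3a long: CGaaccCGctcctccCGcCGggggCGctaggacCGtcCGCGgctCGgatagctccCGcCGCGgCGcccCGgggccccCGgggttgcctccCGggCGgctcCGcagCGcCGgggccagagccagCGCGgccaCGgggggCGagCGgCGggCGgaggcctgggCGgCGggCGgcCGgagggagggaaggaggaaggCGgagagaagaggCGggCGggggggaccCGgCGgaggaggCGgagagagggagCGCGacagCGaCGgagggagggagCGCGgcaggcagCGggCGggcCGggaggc
Dnmt3a short: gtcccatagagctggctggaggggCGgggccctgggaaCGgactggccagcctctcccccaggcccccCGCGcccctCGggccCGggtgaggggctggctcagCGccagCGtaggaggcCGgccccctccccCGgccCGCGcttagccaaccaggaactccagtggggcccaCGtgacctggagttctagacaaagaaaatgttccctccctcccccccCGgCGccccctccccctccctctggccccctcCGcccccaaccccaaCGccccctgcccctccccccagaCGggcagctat
Dnmt3b: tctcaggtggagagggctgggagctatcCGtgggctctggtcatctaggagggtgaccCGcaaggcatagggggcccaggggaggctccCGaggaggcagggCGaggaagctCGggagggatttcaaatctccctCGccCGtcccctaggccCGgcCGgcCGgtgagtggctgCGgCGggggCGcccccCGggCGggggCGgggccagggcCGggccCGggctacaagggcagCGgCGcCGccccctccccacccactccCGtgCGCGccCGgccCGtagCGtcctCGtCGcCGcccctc
Dnmt1: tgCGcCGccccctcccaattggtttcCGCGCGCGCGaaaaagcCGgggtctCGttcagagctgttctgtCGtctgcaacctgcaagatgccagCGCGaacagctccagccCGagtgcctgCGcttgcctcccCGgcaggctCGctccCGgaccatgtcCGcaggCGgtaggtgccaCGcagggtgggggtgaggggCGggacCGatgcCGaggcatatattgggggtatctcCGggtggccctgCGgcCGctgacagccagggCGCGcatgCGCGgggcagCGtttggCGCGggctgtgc

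These windows differ in how many CpG pairs they hold. The long Dnmt3a start had 46, more than 98.4% of the 32851 mouse promoters of the same length, whose median was 7 and quartiles 3 and 20. The short Dnmt3a start had 18, Dnmt3b 30 and the Dnmt1 start shown 33. That start is the richest of Dnmt1; the counted Dnmt1 transcript begins at the most upstream one, with 2 pairs, and the start between them has 12. A second long Dnmt3a start just downstream had 47. The start of the counted Uhrf1 transcript had 33, while the 3 Dnmt3l starts had 6, 4 and 3, at or below the median. The GC box GGGCGG, on either strand, stood 6 times in the long Dnmt3a window, 2 times in the short one, 4 times in Dnmt3b and 2 times in the Dnmt1 window shown; 35.7% of all promoters hold at least 1. The E-box CACGTG was found in the short Dnmt3a window, at -80 from the start, and in 1 Dnmt3l window, against 7.15% of promoters.

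Depth was even across the RNA libraries, between 14.3 and 16.68 M reads as estimated from the steps of the RPKM values. RPKM is the number of reads per kilobase of transcript scaled to library size, so levels of different genes can be set side by side. Each of the 5 genes rested on at least 3147 reads in every library, which gives a counting error of at most 1.78% for a value. The ES cell marker Pou5f1 lay between 448.8 and 623.6 RPKM. Of the 12 ES cell markers, 8 had a positive and 4 a negative log2 fold change of d8 against GC. The sum of the feeder or fibroblast markers was higher in every GC library (62.9 to 209.5 RPKM over 12 genes) than in every d8 library (21.4 to 43.1 RPKM). Much of that sum is the muscle actin Acta2, at 68.2 ± 21.1 RPKM in GC and 17.3 ± 5.04 RPKM in d8. Of the 9 tested, 5 fell, and 8 had a negative and 1 a positive log2 fold change. Of all 12468 genes tested 5.74% were called lower in d8 and 6744 had a negative value. Some of the 9, such as Col1a1, passed the filter on low values only through GC, so these counts describe the tested genes alone. The defining collagen Col1a1 fell from 11.8 ± 4.91 RPKM (SD, n = 2 lines) to 0.897 ± 0.527 RPKM (n = 3 lines), and Lum and Col6a3 were under 1 RPKM in every library. Line GC1 stood apart in Ctcf itself, at 5.58, 5.96 and 6.23 RPKM, against 22.9 to 37.2 RPKM in the other 11 libraries. The part of these differences in the results below was not tested. Values without GC1 are given for the 5 genes and, by a choice made after seeing the data, for the lists and the neighbouring genes.

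Of the maintenance genes, Dnmt1 was held in a narrow range. Its level was 73.9, 75.3 and 73.4 RPKM in GC1, 86.4, 83.1 and 81.7 RPKM in GC2, 84.2, 84.5 and 72.3 RPKM in d8-1, 74.5, 86.5 and 70.9 RPKM in d8-2, and 71.5 and 74.4 RPKM in d8-3. High and low samples occurred in both genotypes, and the groups overlapped. The mean over lines was 79.0 ± 6.75 RPKM in GC (SD, n = 2 lines) and 76.9 ± 3.70 RPKM in d8 (SD, n = 3 lines). The log2 fold change of d8 against GC was -0.04 (SE 0.08, 95% interval -0.23 to 0.15, limma adjusted p = 0.793). With GC1 left out it was -0.13 (limma adjusted p = 0.467). The interval of the test on all 5 lines holds no rise above 0.15 and no fall beyond -0.23 on the log2(RPKM + 1) scale.

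Uhrf1 also varied little. It stood at 89.9, 82.4 and 95.7 RPKM in GC1, 96.4, 89.4 and 94.4 RPKM in GC2, 93.3, 91.3 and 87.8 RPKM in d8-1, 80.8, 100.1 and 81.4 RPKM in d8-2, and 75.7 and 79.5 RPKM in d8-3. The highest and the lowest value were both in d8 lines, so here too the genotypes overlapped. The line means were 91.4 ± 2.89 RPKM in GC and 85.3 ± 6.86 RPKM in d8 (log2 fold change -0.10, SE 0.08, 95% interval -0.31 to 0.10, limma adjusted p = 0.480), and with GC1 left out it was -0.14 (limma adjusted p = 0.526). Uhrf1 was above Dnmt1 in all 14 libraries, with a Uhrf1 to Dnmt1 ratio of 1.16 ± 0.0630 in GC and 1.11 ± 0.0397 in d8.

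In the test on all 5 lines the de novo enzymes rose in d8. Dnmt3a stood at 22.4, 29.9 and 36.8 RPKM in GC1 and 35.3, 36.8 and 21.8 RPKM in GC2. In d8-1 it reached 51.6, 51.7 and 40.2 RPKM, in d8-2 56.8, 35.2 and 45.6 RPKM, and in d8-3 54.3 and 54.4 RPKM. Of the 8 d8 libraries, only d8-2B lay within the GC range. The line means rose from 30.5 ± 1.09 RPKM (GC) to 49.3 ± 4.44 RPKM (d8), a ratio of 1.62, and all 3 d8 line means were above both GC line means. The log2 fold change was 0.69 (SE 0.10, 95% interval 0.46 to 0.92, limma adjusted p = 0.0183, rank 147 of 12468 genes by p). Across all genes tested 8.76% were called, 3.02% as higher in d8 and 5.74% as lower, and 20.3% had all d8 line means above both GC line means. None of the 5 genes had every d8 library above or below every GC library, against 4.05% and 7.35% of genes.

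Dnmt3b, the most abundant of the active enzymes, rose by about as much. Its level was 168.0, 167.3 and 280.5 RPKM in GC1 and 252.4, 236.5 and 110.9 RPKM in GC2. The d8 samples held 348.2, 351 and 239.9 RPKM in d8-1, 311.6, 206.7 and 281.2 RPKM in d8-2, and 318 and 324 RPKM in d8-3. GC2C was far below all other libraries, and d8-2B and d8-1C lay within the GC range. The line means rose from 202.6 ± 3.78 to 300.2 ± 29.4 RPKM, a ratio of 1.48, with all d8 line means above both GC line means (log2 fold change 0.61, SE 0.10, 95% interval 0.38 to 0.85, limma adjusted p = 0.0230). This SE and interval rest on the spread between line means alone. The GC line means nearly coincided, while samples of a line had a standard deviation of 0.42 on the log2 scale. Both may therefore be too narrow, as may those of Dnmt3a, where that standard deviation was 0.31. With the line as a random block over libraries, limma gave adjusted p = 0.0152 for Dnmt3a and 0.0912 for Dnmt3b.

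The direction of both genes held in all 30 alternative fits, but the calls did not. Without GC1, the line of low Ctcf, the log2 fold change was 0.66 for Dnmt3a (limma adjusted p = 0.0779) and 0.65 for Dnmt3b (limma adjusted p = 0.0816), in fits that leave 1 GC line. Without the single library GC2C, Dnmt3a kept its call (log2 fold change 0.58, limma adjusted p = 0.0387) and Dnmt3b lost it (0.42, limma adjusted p = 0.0825). Without d8-2B both log2 fold changes were larger, 0.75 for Dnmt3a and 0.67 for Dnmt3b (limma adjusted p = 0.00835 and 0.00792). Because these are bulk samples, more cells with the RNA and more RNA per cell cannot be told apart.

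Dnmt3l, the stimulating cofactor, did not pass the test. Its level was 202.8, 271.8 and 315.2 RPKM in GC1, 276.6, 266.5 and 256.2 RPKM in GC2, 311.1, 305.0 and 238.4 RPKM in d8-1, 270.5, 401.4 and 276.1 RPKM in d8-2, and 244.7 and 227.1 RPKM in d8-3. The single highest value was that of d8-2B, the library with the lowest Dnmt3a and Dnmt3b of d8. Line means were 264.8 ± 2.22 RPKM in GC and 278.9 ± 40.4 RPKM in d8 (log2 fold change 0.06, SE 0.12, 95% interval -0.22 to 0.34, limma adjusted p = 0.764), and with GC1 left out it was 0.04 (limma adjusted p = 0.904). The interval is wider than that of Dnmt1, and the sign of this value turned in 3 of the 30 alternative fits.

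**Figure D1:**
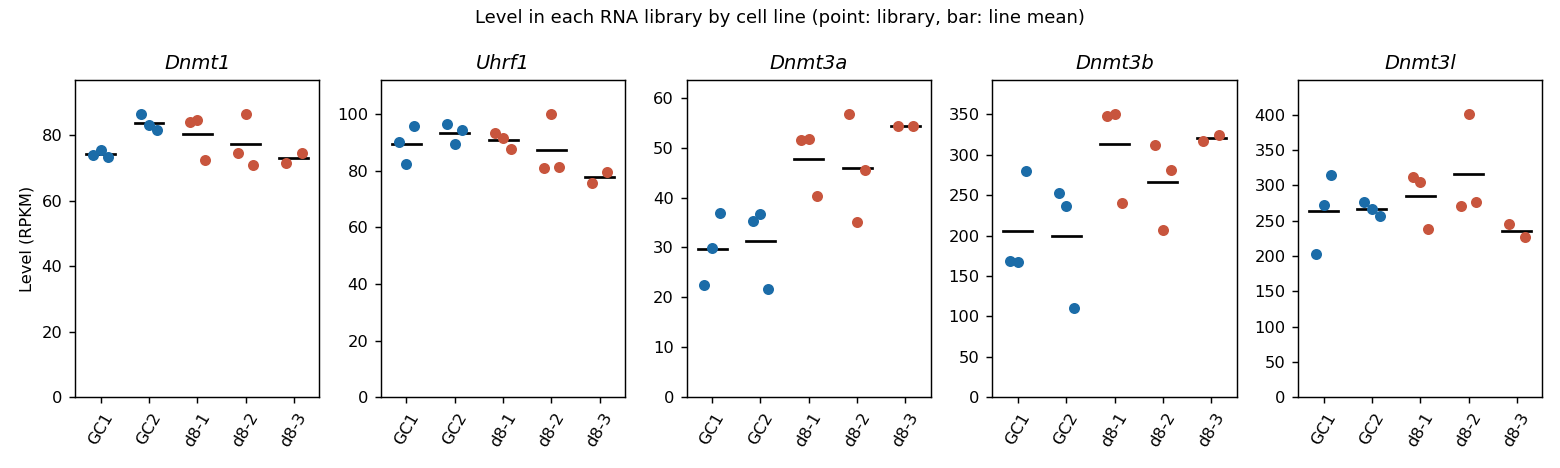
RPKM of each gene in the 14 RNA libraries, by line (points are libraries, bars are line means; GC in blue, d8 in red; each vertical axis starts at 0). Dnmt3a and Dnmt3b line means are higher in all 3 d8 lines than in both GC lines, while those of Dnmt1, Uhrf1 and Dnmt3l overlap.

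**Figure D2:**
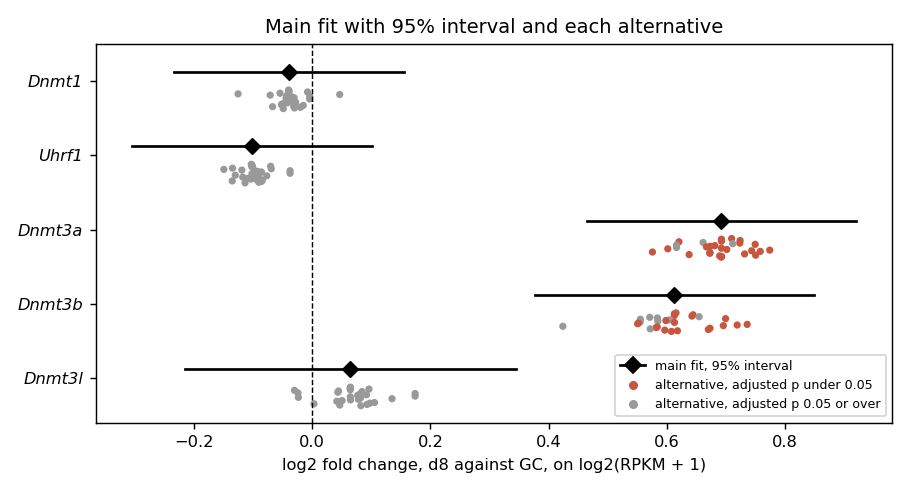
Log2 fold change of d8 against GC on the log2(RPKM + 1) scale for each gene (diamond and line, the value and 95% interval of the test on line means; small points, the 30 alternative fits, red where the adjusted p was under 0.05). All 30 points lie above 0 for Dnmt3a and Dnmt3b, with 26 and 20 of them past the threshold. The fits share most of their data, and the fit with 14 libraries taken as independent, which treats samples of a line as replicates, is among those past it.

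A deposited table of the authors' own comparison lists 2 of the 5 genes. It holds 1280 genes, with a smallest absolute log2 fold change of 0.5 and a highest adjusted p of 0.0497. It thus appears to list only genes past a cut, and absence from it is not a measured lack of change. In the authors' deposited table Dnmt3a has a log2 fold change of 1.51 (adjusted p = 1.3149e-41) and Dnmt3b one of 0.72 (adjusted p = 2.1319e-09). The authors' deposited table names the long Dnmt3a transcript, with an exon length of 9710 bases, where the RPKM values count the short one of 8893 bases. The authors' deposited table states no sign convention. Of its genes, 1239 were also in the test on line means, which called 280 of them, and 273 of those 280 had the same sign in both. Its libraries could not be matched to the samples described here.

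The order of the levels was the same in every library at its lower end: Dnmt3b and Dnmt3l stood above Uhrf1, Uhrf1 above Dnmt1 and Dnmt1 above Dnmt3a in 6 of 6 GC and 8 of 8 d8 libraries. The closest neighbours, Uhrf1 and Dnmt1, differed by little more than the spread between lines. At the top the order was not fixed: in d8 the difference between Dnmt3b and Dnmt3l was within the spread between lines. Dnmt3l exceeded Dnmt3b in 6 of 6 GC libraries and in 1 of 8 d8 libraries, d8-2B. Samples of a line are not independent lines, so these counts are a description.

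The ratio of de novo to maintenance genes, that is Dnmt3a plus Dnmt3b over Dnmt1 plus Uhrf1 in RPKM, puts the shift in one number per library. In GC it was 1.16, 1.25 and 1.88 in GC1 and 1.57, 1.58 and 0.753 in GC2. In d8 it was 2.25, 2.29 and 1.75 in d8-1, 2.37, 1.30 and 2.14 in d8-2, and 2.53 and 2.46 in d8-3. GC2C was the only library in which the maintenance genes exceeded the de novo genes, and 6 of 8 d8 libraries were above every GC library. The mean over lines was 1.37 ± 0.0895 in GC (SD, n = 2 lines) and 2.18 ± 0.286 in d8 (SD, n = 3 lines). No test was made of a score over chosen genes. The maintenance sum was 170.3 ± 9.63 RPKM in GC and 162.1 ± 10.5 RPKM in d8, with overlapping lines. The de novo sum went from 233.1 ± 2.69 to 349.5 ± 33.0 RPKM, with line means apart and libraries overlapping (132.6 to 317.3 RPKM in GC, 241.9 to 402.5 RPKM in d8).

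Single ratios differed between genotypes where a de novo gene was set against a maintenance gene. Dnmt3a over Dnmt1 was 0.387 ± 0.0202 in GC and 0.648 ± 0.0847 in d8, and Dnmt3b over Dnmt1 was 2.57 ± 0.282 and 3.93 ± 0.447. The ratio of Dnmt3b to Dnmt3a was 6.56 ± 0.475 in GC and 6.08 ± 0.363 in d8, with overlapping lines. The cofactor per active enzyme, Dnmt3l over Dnmt3a, was 8.92 ± 0.0411 in GC and 5.90 ± 1.53 in d8, lower in all 3 d8 line means than in both GC line means. In d8-2B this ratio was 11.4, against 4.17 to 6.05 in the other d8 libraries.

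**Figure D3:**
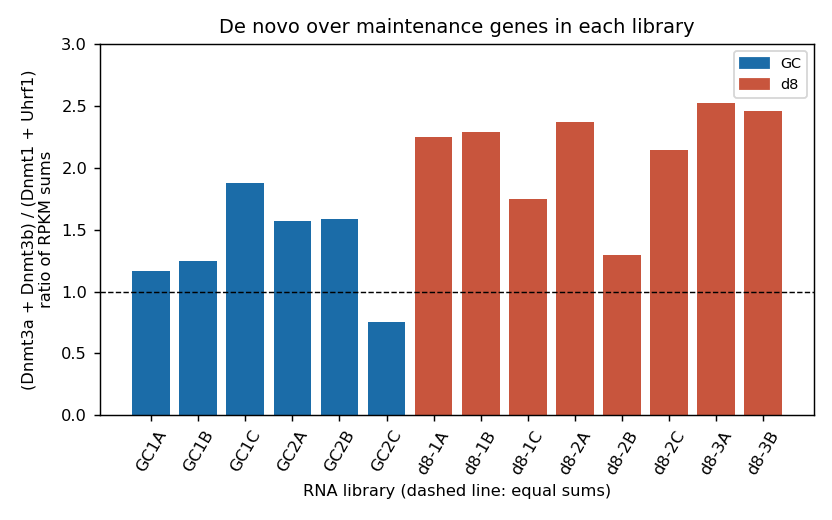
Ratio of summed Dnmt3a and Dnmt3b RPKM to summed Dnmt1 and Uhrf1 RPKM in each library (GC in blue, d8 in red; the dashed line marks equal sums). GC libraries lie between 0.753 and 1.88 and d8 libraries between 1.30 and 2.53, with GC2C the single library under 1.

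Over the 5 lines together, samples of a line differed more in the de novo genes than in the maintenance genes. Line d8-3, with 2 samples, was the exception: its coefficient of variation was 0.120% for Dnmt3a and 1.49% for Dnmt3b, against 2.81% for Dnmt1 and 3.47% for Uhrf1. The standard deviation between samples of a line, on the log2 scale, was 0.42 for Dnmt3b, larger than that of 96.9% of the genes tested, and 0.31 for Dnmt3a, larger than 92.2%. It was 0.24 for Dnmt3l (82.7%), 0.10 for Uhrf1 (21.6%) and 0.10 for Dnmt1 (16.6%), against a median of 0.15 over all genes. Outside d8-3, whose 2 samples mirror each other around their mean, Dnmt3a and Dnmt3b deviated from their line mean in the same direction in 11 of 12 libraries; 1.21% of all tested genes shared the direction of Dnmt3a at least as often. In GC2C they were 0.47 and 0.76 below it, in d8-1C 0.23 and 0.36 below, in d8-2B 0.35 and 0.34 below, and in GC1C 0.33 and 0.49 above, all on the log2 scale. Dnmt1 and Uhrf1 shared their direction in 8 of 12 libraries (19.3% of genes did so with Dnmt1 at least as often) and Dnmt3a and Dnmt3l in 9 of 12 (10.9% at least as often with Dnmt3a). In d8-2B Dnmt1, Uhrf1 and Dnmt3l were above their line mean, by 0.17, 0.20 and 0.37, while both de novo enzymes were below it.

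**Figure D4:**
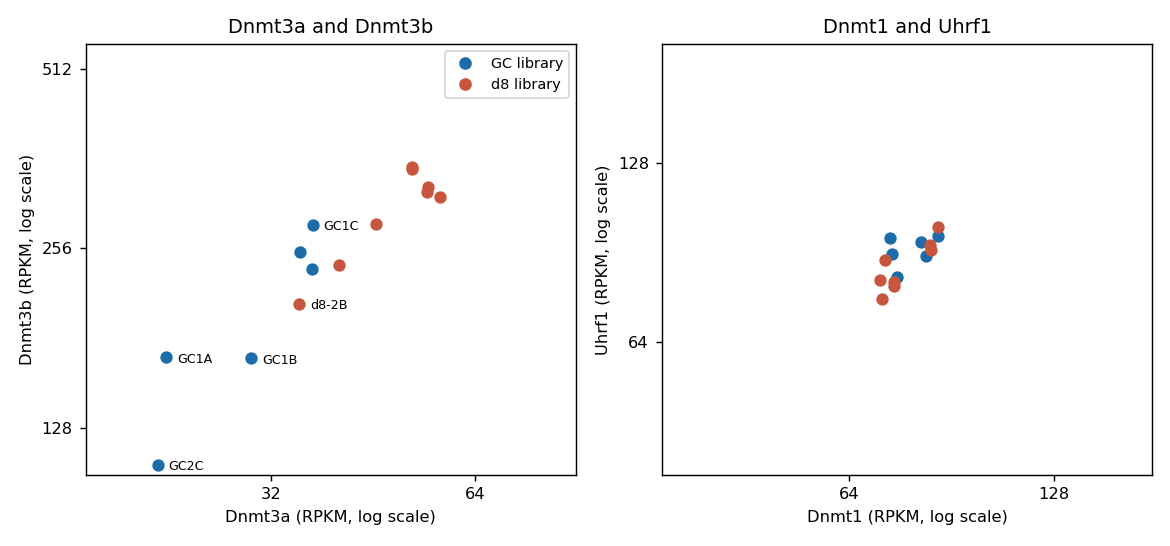
Dnmt3b against Dnmt3a (left) and Uhrf1 against Dnmt1 (right) in RPKM, 1 point per library, on log2 axes that span the same fold in all directions. The de novo pair spreads from GC2C (21.8 and 110.9 RPKM) to d8 libraries above 50 and 300 RPKM, while the maintenance pair stays between 70.9 and 100.1 RPKM.

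Markers of other cell states differed between these libraries. Of all genes tested 45.9% had a positive log2 fold change, with a median of -0.02, and limma called 3.02% higher in d8. Formative or epiblast markers, a list of 8 genes all tested, had a positive log2 fold change in 8 of 8 with a median of 0.68, and Otx2 alone passed (29.7 ± 1.53 to 59.6 ± 16.8 RPKM, log2 fold change 1.04, limma adjusted p = 0.0462). Their summed level was lowest within GC in GC2C (75.3 RPKM, against 134 to 195 RPKM in the other GC libraries). Within d8 it was lowest in d8-2B (126.8 RPKM, against 181 to 267 RPKM). These are the libraries in which Dnmt3a and Dnmt3b were lowest within their genotype. In GC1C the formative sum, Dnmt3a and Dnmt3b were each the highest of GC. The match did not hold in all libraries. In d8-1C, with Dnmt3a at 40.2 and Dnmt3b at 239.9 RPKM, the formative sum was 243.2 RPKM. In d8-2A, with Dnmt3a at 56.8 RPKM, it was 190.2 RPKM. Primitive endoderm markers, 10 genes with 8 tested, summed to 468.8 RPKM in d8-2B and 90.7 to 346 RPKM in the other d8 libraries, and to 171 to 389 RPKM in GC. Their highest GC sum was in GC1B and not in GC2C, and d8-2A, with the highest Dnmt3a of all, had the second highest d8 sum. Their log2 fold change was positive in 7 of 8 with a median of 0.79, while the abundant Sparc (67.8 to 304.5 RPKM) had -0.55. Gata4 alone passed, higher in d8 (3 higher at an unadjusted p under 0.05). Low genes can pass the filter through the genotype in which they are high, so both medians describe the tested genes alone. None of the markers of these lists was at 0 in all libraries. The part of these cell states in the results on Dnmt3a and Dnmt3b was not tested. Of the 12 ES cell markers, Tdgf1 rose and Nanog fell (124.3 ± 27.1 to 55.1 ± 12.4 RPKM, limma adjusted p = 0.0286), while of the trophoblast markers Tfap2c fell and Elf5 was under 1 RPKM throughout. The summed trophoblast markers were highest within GC in GC2C (51.3 RPKM, against 32.5 to 38.9 RPKM) and within d8 in d8-2B (44.1 RPKM, against at most 31.2 RPKM). Without GC1, which leaves 1 GC line, the median log2 fold change was 0.94 for the formative, 0.96 for the primitive endoderm and -0.78 for the feeder or fibroblast markers. Over all genes then tested it was -0.01.

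Between lines of the same genotype none of the 5 genes passed the test. Over the 4 line contrasts limma called 6.60% of genes between GC2 and GC1, 3.14% between d8-2 and d8-1, 1.14% between d8-3 and d8-1 and 0.112% between d8-3 and d8-2. At an unadjusted p under 0.05 there was 1 of the 20 values. This was Uhrf1 in d8-3 against d8-1, a log2 difference of -0.22 (limma adjusted p = 0.357), with both d8-3 samples below all 3 of d8-1. Dnmt1 was 0.17 higher in GC2 than in GC1 on the log2 scale (95% interval 0.00 to 0.35, limma adjusted p = 0.227), and each GC2 sample exceeded each GC1 sample. For Dnmt3b the intervals were wide, from -0.70 to 0.54 between the GC lines and from -0.40 to 0.98 between d8-3 and d8-2. Nothing in the labels says that samples of a line came from separate cultures, so what these p-values set the differences against is sample-to-sample spread that may be technical.

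The genes whose pattern over the 14 libraries was most like that of each gene were found, members left out, by the root mean square distance between centred log2(RPKM + 1) values. Nearest to Dnmt3a were Ptprs, a receptor tyrosine phosphatase (distance 0.15), Arhgdig (0.16) and Mthfd1l, a mitochondrial enzyme of folate metabolism (0.16); the median distance over all genes was 0.47. Their levels in GC and d8 were 22.5 and 34.7 RPKM for Ptprs and 20.6 and 36.3 RPKM for Mthfd1l, a difference that the choice by likeness to Dnmt3a already holds. Nearest to Dnmt3b were Fzd7, a Wnt receptor (0.17), Dtx1 (0.19) and Mapk8ip2 (0.19) among genes that are not members, with a median of 0.50; Dnmt3a itself was as near, at 0.17. Dnmt1 was nearest to Ube3c, Ints3 and Nol6 (0.06 each) and Uhrf1 to Rab8a, Kri1 and Ubtf (0.07 each), against medians of 0.23. These small distances are among genes that vary little, and the distance from Dnmt1 to Uhrf1 was 0.08. Dnmt3l was nearest to Chrna9, Nipa1 and Cd3eap, at 0.14 to 0.15 against a median of 0.31.

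Other genes linked to methylation were put in 8 lists with 89 tested genes. These include 20 tested S-phase genes and 12 tested germline genes, which are not part of the methylation pathway itself. Of the 89, 7 rose and 5 fell, that is 7.87% and 5.62%, beside 3.02% and 5.74% of all genes tested. The germline genes gave 2 of those that rose and the S-phase genes 3 of those that fell. Without GC1 limma called 0 genes of these lists, and 27 of all 12456 genes then tested. Of the maintenance partners, which include the remodeller Hells, the clamp Pcna and the deubiquitinase Usp7, 0 of 8 passed (limma; 2 at an unadjusted p under 0.05, Usp7 with a positive and Dmap1 with a negative value), with a median log2 fold change of -0.01 beside -0.02 over all genes tested. Hells, the most abundant of those, was at 157.7 ± 16.5 RPKM in GC and 164.0 ± 6.59 RPKM in d8. Of 15 tested genes that recruit the de novo enzymes or build heterochromatin, 1 passed: Nsd1, a histone H3 lysine methyltransferase, rose from 31.3 ± 3.47 to 42.6 ± 2.76 RPKM (log2 fold change 0.44, limma adjusted p = 0.0435). The abundant corepressor Trim28 lay at 588.6 to 785.4 RPKM with a log2 fold change of -0.12.

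Of 5 genes linked to low methylation in naive cells limma called 1, beside 8.76% of all genes. Tbx3, a transcription factor of naive ES cells, rose from 5.34 ± 0.0330 to 12.3 ± 2.13 RPKM (log2 fold change 1.06, limma adjusted p = 0.0179). Prdm14, which in mouse represses the de novo genes, had a log2 fold change of -0.66 that did not pass (limma adjusted p = 0.235; 1.16 to 6.47 RPKM over libraries). Dppa3, an inhibitor of Uhrf1, did not pass either, at -0.16, nor did Klf2 at -0.46 and Zfp42 at 0.33. The part of these genes in the levels of the members was not tested. Of 9 demethylation genes limma called 1 higher, beside 3.02% of all genes, and 5 had a positive and 4 a negative log2 fold change. Gadd45a rose from 24.5 ± 0.315 to 36.4 ± 2.58 RPKM (log2 fold change 0.56, limma adjusted p = 0.0202), and the dioxygenase Tet1 had a log2 fold change of 0.47 (limma adjusted p = 0.0725). Gadd45b had -0.69 and Gadd45g 0.66, and neither passed. Of 7 tested methyl-CpG readers 0 passed in limma (1 at an unadjusted p under 0.05, Zbtb33), Mbd3 being the most abundant at 110.7 ± 4.22 and 108.7 ± 8.74 RPKM.

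Of 13 genes of methyl donor supply 2 rose and 2 fell, beside 8.76% of all genes called. Gldc, the glycine decarboxylase, rose from 105.4 ± 9.29 to 146.4 ± 14.2 RPKM and Shmt2, a mitochondrial serine hydroxymethyltransferase, by 0.28 on the log2 scale. Shmt1, its cytosolic counterpart, fell from 92.3 ± 4.59 to 61.3 ± 5.68 RPKM and Mat2b, a subunit of methionine adenosyltransferase, fell from 78.5 ± 8.45 RPKM by 0.38 on the log2 scale. Both lie on chromosome 11, where the median over the genes tested was -0.40 on the log2 scale. Of 20 S-phase genes limma called 0 higher (1 at an unadjusted p under 0.05) and 3 lower, Cdc6 (also on chromosome 11), Gins1 and Slbp, with a median of -0.09; 5.74% of all genes were called lower. Dnmt1 and Uhrf1 are themselves expressed most in S phase.

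Germline genes that promoter methylation keeps silent in most cells form a group known to depend on these enzymes. Of 18 listed, 12 were tested, of which limma called 2 higher and 0 lower (3 and 0 at an unadjusted p under 0.05; 11 of 12 had a positive log2 fold change, median 0.47). Of all genes tested 3.02% were called higher and 45.9% had a positive value. Without GC1, 9 of 13 tested germline genes were positive, with a median of 0.17. Mael, a piRNA pathway factor, rose from 5.70 ± 2.16 to 15.8 ± 5.27 RPKM (log2 fold change 1.31, limma adjusted p = 0.0415) and Sycp3, of the synaptonemal complex, from 6.94 ± 3.47 to 15.0 ± 0.737 RPKM (1.06, limma adjusted p = 0.0495). Asz1, Brdt, Dpep3 and Tuba3b were under 1 RPKM in every library. Genes that passed the filter through the genotype in which they are high tend to differ, so the median describes the tested genes alone.

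Of the genes around the members 3 of 36 tested passed, that is 8.33%, beside 8.76% of all genes. Without GC1 the count was 0. Within 200 kb of the Dnmt3a start 2 genes were tested and within 200 kb of the Dnmt3b start also 2, with 0 called by limma in both (also 0 at an unadjusted p under 0.05); the nearest were Efr3b at 147.2 kb (log2 fold change 0.17) and Commd7 at 16.7 kb (0.09). The medians of chromosomes 12 and 2 were 0.01 and -0.01. Near Dnmt1 1 of 14 tested genes passed, the adhesion molecule Icam1 at 56.1 kb, with 7.84 and 16.7 RPKM in GC and d8 (log2 fold change 1.01, limma adjusted p = 0.0164). Near Uhrf1 2 of 10 passed: Mir6977, counted over a short exon at 0.323 and 2.62 RPKM, and at 157.9 kb Ptprs, the gene most like Dnmt3a in pattern. Near Dnmt3l 0 of 8 passed in limma (3 at an unadjusted p under 0.05), the nearest being Aire at 6.35 kb (log2 fold change -0.36, limma adjusted p = 0.180).

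CTCF peaks around the 5 genes came from lists of 26729 GC and 15546 Del8 peaks. The Del8 library had fewer tags, 5.59 M against 8.09 M, the 2 libraries carry different dates in the file headers, and the lists have no replicates, so for a GC peak without a Del8 peak, depth, date and binding cannot be told apart. Within 50 kb of the start of the counted transcript lay 20 GC peaks, of which 10, that is 50.0%, overlapped a Del8 peak by at least 1 base. Near all tested genes the share was 45.3%, and of all GC peaks 42.0%. It fell with the position in the list, from 73.2% in the first 25% of the list to 14.7% in the last; what the order of the list stands for is not given in the sources used here. Tested genes had a median of 2 GC peaks within 50 kb (quartiles 1 and 4). Dnmt1 and Dnmt3a each had 2, and Uhrf1, Dnmt3b and Dnmt3l had 6, 5 and 5.

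Few peaks lay near each de novo gene and the lists have no replicates, so the counts below cannot show that the genes differ. Both GC peaks within 50 kb of the counted Dnmt3a start were retained (chr12:3870896-3871128, 20.7 kb upstream, and chr12:3926156-3926388, 34.5 kb downstream). A further GC peak at chr12:3806310-3806542 lay 554 bp upstream of the long Dnmt3a start, with mm10 taken as the build of the peaks, next to the CpG-rich promoter printed above, and had no Del8 peak. It stood at position 4166 of the 26729 in the GC list. Its neighbours upstream, 15.0 and 25.3 kb from the long start, were retained. Around Dnmt3b 2 of 5 GC peaks were retained, at 39.7 kb upstream and 45.2 kb downstream. The nearest one, inside the gene 19.4 kb from the start (chr2:153668719-153668951), had no Del8 peak. Around Dnmt3l 3 of 5 were retained, including the nearest, 6.4 kb upstream of the counted start and 1296 bp past the most upstream RefSeq start (chr10:78043467-78043699).

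Around the maintenance genes, neither of 2 GC peaks upstream of Dnmt1, at 38.7 and 41.1 kb, had a Del8 peak. Uhrf1 kept 3 of 6, among them the nearest at 12.9 kb upstream (chr17:56291292-56291524), and the 3 without a Del8 peak were all downstream, at 28.8, 33.1 and 46.6 kb. Close to the last of these lay the single Del8 peak within 50 kb of any member that overlapped no GC peak (chr17:56352100-56352346, 47.9 kb downstream); 27.8% of all Del8 peaks overlap no GC peak. No GC peak lay within 2 kb of the counted start of any of the 5 genes. Of all tested genes 19.2% had one, so 5 genes are too few to show a difference. At starts that were not the counted ones, GC peaks lay 554 bp from Dnmt3a and 1296 bp from Dnmt3l.

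**Figure D5:**
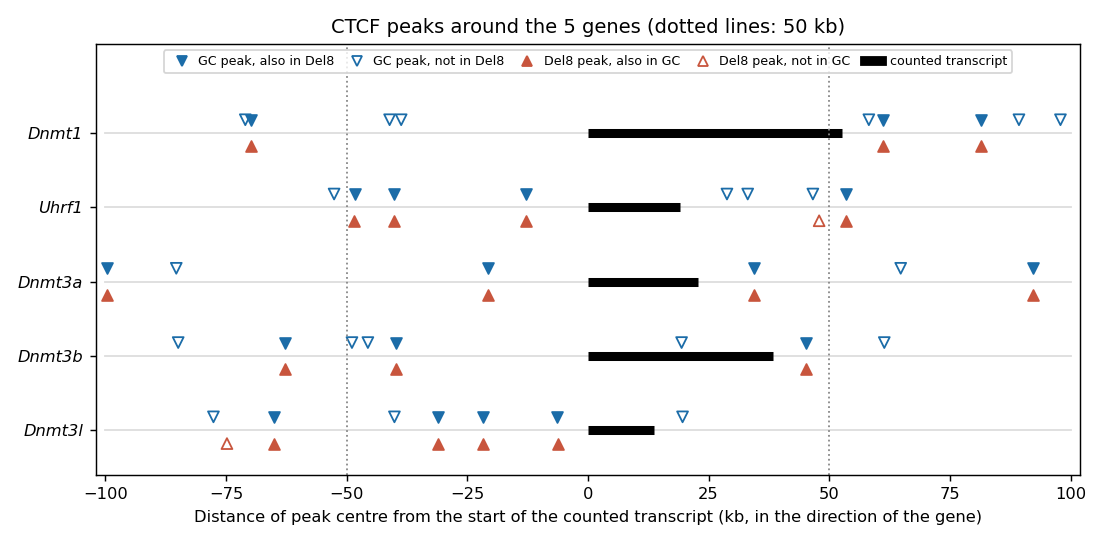
CTCF peaks of the GC list (blue, above each line) and the Del8 list (red, below) by distance in kb from the start of the counted transcript, drawn in the direction of each gene (black bar, the transcript; filled, overlapped by a peak of the other list; open, not overlapped; dotted lines at 50 kb). The open GC peak 85.3 kb upstream of the counted Dnmt3a start is the one beside the long start.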

How the data were processed

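RNA was read as stranded, single-end 50 bp libraries, per the labels' protocols. RPKM values were deposited by the authors, counted over exons of 1 RefSeq transcript per gene in mm10 with HOMER and with no strand option, per the file headers; reads of overlapping antisense genes cannot be told apart, and 410 genes have more than 1 copy. The submitters' processing notes name HISAT2, DESeq2, SAMtools, deepTools, Bowtie and HOMER, and the builds mm10 and mm9, without versions. ChIP-seq reads were 36 bp, and the deposited peaks were called per library with HOMER at a false discovery rate of 0.001 and 4-fold over the local region, with no control library in the command, per the file headers. Every deposited peak score is 1. The authors' deposited table of 1280 genes holds log2 fold changes with raw and adjusted p-values; 5 per-library columns in it could not be tied to a sample and were not used.

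Values were averaged per line as log2(RPKM + 1), which understates the change of low genes, and tested over 12468 genes whose mean reached 1 RPKM in GC or in d8, with limma 3.58.1 in R 4.3.3 (trend in the variance, two-sided, Benjamini-Hochberg adjustment over all tested genes, threshold 0.05). Line contrasts used limma over the 14 libraries. The peak headers name no build and the notes name 2. Peak coordinates were taken as mm10 (1-based), since 8.76% of GC and 10.3% of Del8 peak centres lay within 1 kb of an mm10 gene start as deposited, against 3.26% and 3.13% after a move by 100 kb; mm9 itself was not tested, and under it the distances would not hold. The members and gene lists were chosen with earlier results of these data known, so no set test and no p over members alone is given. Named genes were, by rule, all members, up to 3 called genes of the largest change per list (or the most abundant), the 3 genes nearest in pattern to each member, and called or nearest neighbours within 200 kb. Shmt2, Trim28, Pcna, Usp7, Dmap1, Zbtb33, Prdm14, Dppa3, Klf2, Zfp42, Tet1, Gadd45b, Gadd45g, Pou5f1 and Sparc were named after their values were seen. Depth was estimated from the steps of low RPKM values, which came out as whole reads within 0.1 read; counting errors from it cover counting only. Alternatives were the pseudocount, the filter, centring, chromosome 11, lines and libraries left out, blocks, and the peak window and overlap. Promoters are RefSeq, GRCm38.p6, matched by symbol for 5 of 5 genes. Python 3.11.15 and pandas 2.3.3 were used.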

Additional observations from a re-analysis of the deposited data

Results flagged for a closer look

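Among 30 groups of values over the libraries of a genotype, 2 held a sample far from the others, in both cases d8-2B among the 8 d8 libraries; chance flags about 1 in 20 groups. Its Dnmt3b to Dnmt1 ratio was the lowest of d8, 2.39 against 3.32 to 4.44 in the others, a gap of 0.529 of the whole range. Its Dnmt3l to Dnmt3a ratio was the highest of d8, 11.4, with a gap of 0.630 of the range. The same library had the highest summed primitive endoderm markers of all 14 (468.8 RPKM) and the lowest formative markers of d8 (126.8 RPKM); their part in these ratios was not tested.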

How the results depend on the processing

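Over 30 alternative fits Dnmt3a passed in 26 (log2 fold change 0.58 to 0.77) and Dnmt3b in 20 (0.42 to 0.74). Of these 30 fits 14 left out only 1 library. The lowest limma adjusted p of Dnmt3a, 0.00152, came from the fit with 14 libraries taken as independent. That fit treats samples of a line as replicates, and Dnmt3b passed in it too. Dnmt1, Uhrf1 and Dnmt3l passed in 0 of the 30 in limma, and in 0 at an unadjusted p under 0.05 in the test on line means. With a line left out the log2 fold change of Dnmt3a lay between 0.62 and 0.75 and passed in 2 of 5 fits, that of Dnmt3b between 0.56 and 0.70 and passed in 1, that of Dnmt1 between -0.13 and 0.05, and that of Dnmt3l between -0.02 and 0.17; fewer lines leave fewer degrees of freedom. With a library left out, which was chosen after seeing the data, Dnmt3b lay between 0.42 and 0.74 and lost its call without GC2C (adjusted p = 0.0825) or d8-2A (0.57, adjusted p = 0.0550), Dnmt3a lay between 0.58 and 0.77 and passed in 14 of 14, and Dnmt3l lay between -0.02 and 0.13. Without GC2 Dnmt1 turned to 0.046, and without d8-2 Dnmt3l turned to -0.024. Dnmt3b also missed the threshold with no filter on low values (0.61, limma adjusted p = 0.0614) and with the line as a random block over libraries (0.60, limma adjusted p = 0.0912). Dnmt3l turned to -0.030 with each chromosome centred. The count of changed genes, 1092, was 290 with no filter, 368 without chromosome 11, 544 with each chromosome centred, 27 to 577 without a line, 744 to 1457 without a library, 2545 with a random block by line and 4029 with 14 libraries taken as independent. The cause of these moves was not tested.

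The sample letters and numbers did not pair the samples: over pairs with the same letter the correlation of deviations from the line means was -0.29 to 0.31 (median -0.03), and with the same full number -0.19 to 0.08. With a replicate block by letter Dnmt3b gave 0.58 (limma adjusted p = 0.127) with 2230 genes called, and by full number 0.56 (limma adjusted p = 0.167) with 2028 called and Dnmt3a at 0.62 (limma adjusted p = 0.0525). Between lines the call of 0 members held in all fits, but single differences changed sign: without a library, GC2 against GC1 lay between -0.12 and 0.30 for Dnmt3a, -0.30 and 0.29 for Dnmt3b and -0.14 and 0.18 for Dnmt3l. For d8-2 against d8-1 it lay between -0.24 and 0.10 for Dnmt3a, -0.050 and 0.23 for Dnmt3l and -0.14 and 0.0029 for Dnmt1. For d8-3 against d8-2 Dnmt1 lay between -0.14 and 0.0050, and for d8-3 against d8-1 Dnmt3b lay between -0.12 and 0.15, and at -0.0075 with the block by letter. The log2 ratio of maintenance to de novo genes differed by -0.70 between genotypes, and by -0.80 to -0.59 with a line left out. GC peaks and retained peaks numbered 4 and 2 within 20 kb and 38 and 18 within 100 kb, and 23 and 12 within 50 kb of any RefSeq start, a window chosen after seeing the data. With 2 GC and 3 d8 lines, differences within the intervals given cannot be seen.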
